A study of Mus musculus with 2 samples.

Results

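Head-to-head pairs are neighbouring protein-coding genes on opposite strands that start close together and run away from each other. Pairs were taken from the GENCODE M21 annotation of the mouse build GRCm38 (mm10). A pair was kept where the 5′ ends lay 0 to 1 kb apart, the genes did not overlap and no other coding gene covered the gap between them. This gave 699 pairs, whose 1398 genes make up 6.38% of 21911 coding genes. The median gap was 126 bp, with quartiles of 65 and 235.5 bp, and 575 pairs (82.3%) had gaps of at most 300 bp. At the edge of the rule, the widest pair kept was Btf3l4/Txndc12 with 986 bp, and the first left out was Serpina7/4930513O06Rik with 1006 bp.

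Trimethylation of lysine 36 of histone H3 (H3K36me3) was mapped by chromatin immunoprecipitation and sequencing in E14TG2a.4 cells, a male embryonic stem cell line of mouse strain 129/Ola. The labels give 1 untreated group of 2 biological replicates from separate biosamples, at an embryonic stage and an age of 3.5 day. The files hold called peaks, with 107779 peaks over 139.036 Mb in replicate 1 and 98185 peaks over 126.968 Mb in replicate 2. With 1 group of 2 samples there is no condition to test, and errors are the SD over the replicates, which say nothing of genes as replicates. The depth of sequencing is unknown, so a base outside peaks is one not called, not one shown to lack the mark. In bulk cells, a mark in fewer cells and a weaker mark in every cell cannot be told apart. Of 6 embryonic stem cell markers, 6 had 35.4% to 80.1% of their bodies in peaks, and 6 of 6 markers of feeder fibroblasts had no covered base.

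H3K36me3 is placed by SETD2, a methyltransferase that travels with elongating RNA polymerase II, and is known from the bodies of transcribed genes. The mark is usually low at promoters, where H3K4me3 is found. Genes that start head to head often share a CpG-rich promoter region that fires in both directions, and many of them work in DNA repair, mitochondria and basic cell upkeep. Pairs of replication-dependent histone genes, which make H2A and H2B for S phase, are arranged in the same way. Gene pairs are written below with the minus-strand gene first and the plus-strand gene second.

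A gene was called marked where at least 10% of its annotated body lay in peaks in each replicate, a level that 37.2% of all coding genes reached. In the head-to-head pairs, 932 of 1398 genes (66.7%) were marked, against 7223 of 20513 other coding genes (35.2%). In 347 pairs (49.6%) both genes were marked, in 238 pairs (34.0%) 1 gene was, and in 114 pairs (16.3%) neither was. The gaps between the starts were almost free of peaks: of 133525 gap bases, 52 were covered in replicate 1 and 126 in replicate 2.

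The following gaps are printed 5′ to 3′ on the plus strand, from the RefSeq genome sequence of GRCm38.p6. They show the DNA between the genes for 4 textbook pairs with both genes marked, 2 pairs with only the minus-strand or only the plus-strand gene marked, 2 pairs with neither marked and the 2 gaps that held a peak. The minus-strand gene starts just left of each sequence and the plus-strand gene just right of it. Capitals mark exact matches, on either strand, to 8 promoter motifs. These were the TATA box TATAAA, the CCAAT box, the GC box GGGCGG, the ETS motif CCGGAAGT, the NRF1 core GCATGCGC, the cAMP response element TGACGTCA, the YY1 motif AAGATGGC and the octamer ATTTGCAT.
Brca1/Nbr1, 193 bp at chr11:101551956-101552148: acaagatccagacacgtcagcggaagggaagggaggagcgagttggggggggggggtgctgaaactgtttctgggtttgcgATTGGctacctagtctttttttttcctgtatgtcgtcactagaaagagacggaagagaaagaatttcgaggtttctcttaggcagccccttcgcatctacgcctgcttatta
Aurka/Cstf1, 145 bp at chr2:172370536-172370680: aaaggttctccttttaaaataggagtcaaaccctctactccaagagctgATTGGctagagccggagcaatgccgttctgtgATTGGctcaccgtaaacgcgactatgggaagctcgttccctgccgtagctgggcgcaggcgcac
Psmb1/Tbp, 136 bp at chr17:15499752-15499887: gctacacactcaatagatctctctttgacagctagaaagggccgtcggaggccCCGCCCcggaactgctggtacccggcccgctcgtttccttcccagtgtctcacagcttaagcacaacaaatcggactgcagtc
Med22/Rpl7a, 86 bp at chr2:26910678-26910763: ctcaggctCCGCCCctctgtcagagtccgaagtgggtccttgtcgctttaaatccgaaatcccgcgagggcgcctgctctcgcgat
Deaf1/Tmem80, 48 bp at chr7:141327691-141327738: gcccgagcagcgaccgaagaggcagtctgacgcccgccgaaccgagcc
Ccdc151/Prkcsh, 171 bp at chr9:22002635-22002805: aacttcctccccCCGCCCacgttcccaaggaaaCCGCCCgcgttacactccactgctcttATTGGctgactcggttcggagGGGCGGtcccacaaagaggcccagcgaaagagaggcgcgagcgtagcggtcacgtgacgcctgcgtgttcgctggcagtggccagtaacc
Col4a4/Col4a3, 71 bp at chr1:82586850-82586920: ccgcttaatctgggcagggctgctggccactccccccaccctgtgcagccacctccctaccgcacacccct
Hist1h2ae/Hist1h2bg, 175 bp at chr13:23571221-23571395: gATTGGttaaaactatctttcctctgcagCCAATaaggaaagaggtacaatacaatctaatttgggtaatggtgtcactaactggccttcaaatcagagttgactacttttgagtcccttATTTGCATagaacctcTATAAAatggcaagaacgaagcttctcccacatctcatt
Rnf151/Rps2, 52 bp at chr17:24718064-24718115: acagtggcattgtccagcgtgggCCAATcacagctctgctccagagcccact
Dgcr2/Tssk2, 74 bp at chr16:17898563-17898636: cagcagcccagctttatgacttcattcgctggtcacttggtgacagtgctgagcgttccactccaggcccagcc

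The printed gaps differ widely in base composition within and between these kinds of pair. Ccdc151/Prkcsh, with 1 gene marked, holds 17 CpG dinucleotides and 63.7% G and C. Brca1/Nbr1, with both marked, holds 9 CpG and 50.3% G and C, and Col4a4/Col4a3, with neither marked, holds 2 CpG and 69.0% G and C. The histone gap is the poorest of the printed ones in G and C, at 38.3%, and is the only one printed with a TATA box and an octamer.

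The textbook pairs give examples of head-to-head pairs with both genes marked. Of 26 well-known pairs listed by name, 14 met the rule, and in 12 of these both genes were marked, against 49.6% of all 699 pairs. The list was written by hand with earlier results of these data known, so the 2 shares are not a like comparison. Brca1, which acts in homologous recombination, had 92.8% of its body in peaks in replicate 1 and 91.9% in replicate 2. Its partner Nbr1, an autophagy receptor, had 78.9% and 85.0%. From the last covered base in Brca1 to the first in Nbr1, 3965 bp held no peak in replicate 1 and 5729 bp in replicate 2, so the 193-bp gap sits in a much longer unmarked stretch. Gart, an enzyme of purine synthesis, had 93.3% and 92.6%, beside 87.6% and 86.1% in Son, a splicing cofactor, across a gap of 553 bp. Both genes of the Gart/Son pair were therefore covered over most of their length.

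Of the other textbook pairs, 4 with genes of gene expression, protein turnover or the cell cycle are given next. Psmb1, a proteasome subunit, averaged 67.3% ± 0.432, and Tbp, the TATA-binding protein, averaged 84.0% ± 0.151 (SD, n = 2 here and below). Med22, a Mediator subunit, averaged 73.0% ± 3.07, and Rpl7a, a protein of the large ribosomal subunit, 91.9% ± 0.277. Hnrnpa2b1, an RNA-binding protein, averaged 80.1% ± 3.05, and Cbx3, the heterochromatin protein HP1 gamma, 77.2% ± 0.397. Aurka, a mitotic kinase, averaged 89.6% ± 0.123, and Cstf1, a factor of 3′ end cleavage, 77.3% ± 0.967. The partners differed by more than the SD of either gene in 3 of these 4 pairs, the exception being Hnrnpa2b1/Cbx3.

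DNA repair genes with head-to-head partners were marked in most cases, but not evenly. Pms2, a mismatch repair factor, averaged 74.0% ± 7.06, beside 80.5% ± 0.584 in Aimp2, a scaffold of the tRNA synthetase complex. Atm, the kinase that senses double-strand breaks, averaged 54.2% ± 2.18, and Npat, a regulator of histone gene transcription, 61.8% ± 0.228. Mcm4, a subunit of the replicative helicase, averaged 90.6% ± 0.691, whereas Prkdc, the DNA-dependent protein kinase, averaged 24.9% ± 0.263 over its 204370 bp. Tsc2, a brake on mTOR signalling, averaged 88.5% ± 0.469, and Nthl1, a base excision repair glycosylase, 45.9% ± 10.2. Mrps12, a mitochondrial ribosomal protein, averaged 39.7% ± 9.50, beside 66.3% ± 3.75 in Sars2, the mitochondrial seryl-tRNA synthetase. A marked pair can thus hold genes with very different covered shares, Mcm4 and Prkdc being the widest apart of these 12.

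The other 2 textbook pairs were not marked on both sides. Pdcd10, a vascular signalling adaptor, had 30.8% and 18.1% of its body in peaks, while Serpini1, a serpin of neurons, had no covered base in either replicate. Col4a4 and Col4a3, collagen chains of basement membranes, had no covered base in either gene or replicate. The nearest peak right of the Col4a3 start lay 140268 bp away in replicate 1 and 140289 bp in replicate 2, past the end of the gene.

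The 5 pairs with the highest share in their lower gene were Gart/Son from the textbook pairs, Rps28/Ndufa7, Bysl/Med20, Safb2/Safb and Rsrc2/Kntc1. Rps28, of the small ribosomal subunit, averaged 92.3% ± 0.856, and Ndufa7, of respiratory complex I, 89.0% ± 1.63, with starts 9 bp apart. Safb2 and Safb, which are related scaffold attachment factors and so share sequence, averaged 92.7% ± 0.317 and 89.9% ± 0.145. Bysl, a ribosome assembly factor, averaged 87.0% ± 1.73, and Med20, of Mediator, 88.1% ± 2.45. Rsrc2 averaged 89.5% ± 0.209, and Kntc1, of the kinetochore, 91.9% ± 0.484. In these pairs, which were chosen for their high covered share, peaks covered most of both genes and no base of the gap.

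The covered share of one gene said little about the exact share of the other. Over all 699 pairs, Spearman's rho between the covered shares of the partners was 0.285 in replicate 1 and 0.275 in replicate 2, as a description across pairs that share the same libraries. Within the 347 pairs with both genes marked it was 0.084 and 0.071. The median absolute difference between the partners in those pairs was 19.8 points in replicate 1 and 20.9 points in replicate 2, whereas the median difference of a marked pair gene between the replicates was 3.50 points. In 143 of the 347 pairs both genes reached 50% in each replicate.

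**Figure D1:**
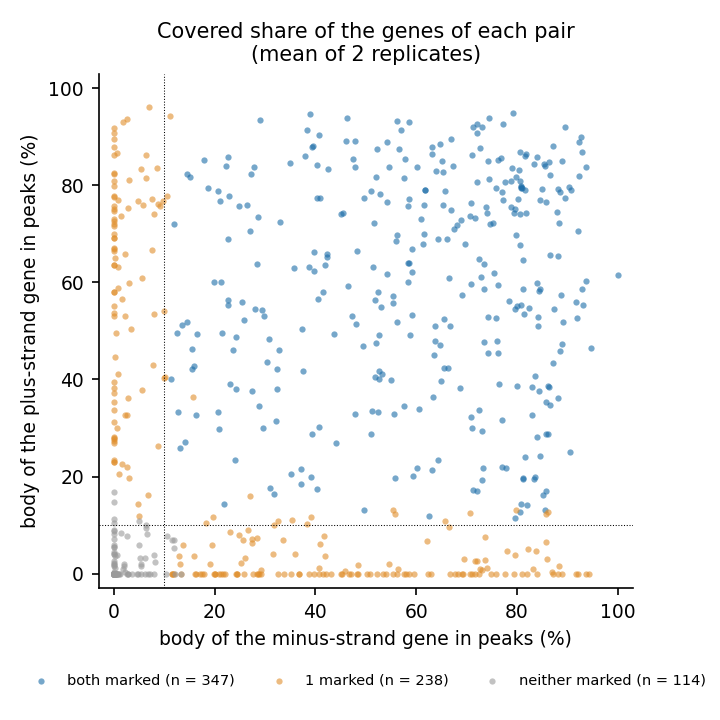
Percent of the gene body in H3K36me3 peaks in the minus-strand gene (x axis) and the plus-strand gene (y axis) of each of 699 head-to-head pairs, as the mean of 2 replicates; dotted lines mark 10%, and colours give the 347 pairs with both genes marked, the 238 with 1 and the 114 with neither. Points fill the upper right square without a clear diagonal, many pairs with 1 marked gene lie on an axis, and a few points past a line are unmarked because 1 replicate fell under 10%.

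The number of marked genes in a pair was mostly the same in the replicates. Taken alone, replicate 1 gave 374 pairs with both genes marked, 223 with 1 and 102 with neither, and replicate 2 gave 351, 241 and 107. This number agreed in 652 of 699 pairs (93.3%), though the gene concerned could differ. In Mrpl41/Pnpla7, Mrpl41 had 13.1% in replicate 1 and 0% in replicate 2, and Pnpla7 5.66% and 10.6%. Of the 932 marked pair genes, 636 were covered more in replicate 1 and 295 more in replicate 2, the direction of the total covered bases. The largest disagreements were in short genes. Zfp830, a zinc finger gene of 1591 bp, had 33.1% of its body in peaks in replicate 1 and 0.503% in replicate 2, with its partner Cct6b at 0% in both. Lamtor2, a part of the Ragulator complex on lysosomes, had 53.9% and 22.7%, and Tmem190 had 68.8% and 38.6%. The pairs Cct6b/Zfp830, Lamtor2/Ubqln4 and Il11/Tmem190 therefore rest on values that differ widely between the libraries.

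The 8 pairs with 1 marked gene that are given next were chosen for the widest difference between the partners. Hsp90b1, the chaperone of the endoplasmic reticulum, had 93.8% and 93.4% of its body in peaks, and Ttc41, which starts 301 bp away, had none. Deaf1, a transcription factor, had 95.1% and 93.4%, and Tmem80, which starts 48 bp away, had none. The first peak began 540 bp into Deaf1 in replicate 1 and 515 bp in replicate 2, while on the Tmem80 side the next peak lay 66296 and 66546 bp from the start. Eftud2, a spliceosomal GTPase, had 92.9% and 90.5%, against 0% in Ccdc103, a factor for dynein arms of cilia. Tmem209 had 92.7% and 91.5%, against 0% in Ssmem1.

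In the other 4 of the 8 pairs with the widest difference the plus-strand gene carried the mark. Prkcsh, the beta subunit of glucosidase II, had 90.4% and 91.2%, and Ccdc151, another dynein arm factor, had 0%. Dnttip1, a part of a histone deacetylase complex, had 91.5% and 92.0%, and Wfdc3 had 0%. Nol9, a kinase of ribosomal RNA processing, had 92.9% and 93.2%, and Tas1r1, a taste receptor, had 3.52% in replicate 1 and 0% in replicate 2. Topbp1, a scaffold of the replication checkpoint, had 93.0% and 94.1%, and 1300017J02Rik had 3.37% and 2.03%. Across these 8 pairs the covered gene was above 90% in both replicates and its partner below 4%.

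Over all 238 pairs with 1 marked gene, the partner had no covered base in either replicate in 123 pairs (51.7%). In 37 pairs the mean of the partner over the replicates lay between 5% and 10%, just under the threshold. These are not all the partners near it, since others averaged above 10% and fell under it in 1 replicate. An example is Hnrnph2, with 22.6% in replicate 1 and 9.37% in replicate 2. The marked gene was on the minus strand in 140 pairs and on the plus strand in 98. Its median covered share was 56.7% in replicate 1 and 51.8% in replicate 2, against 0% for the unmarked partner in both. The marked gene was the longer of the pair in 89 of 238 pairs, and the median length was 20770 bp for marked genes and 28026 bp for their partners.

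Having a marked partner went with being marked. Of genes whose head-to-head partner was marked, 74.5% were marked themselves, and of genes whose partner was not, 51.1%. Both figures lie above the 35.2% of coding genes outside the pairs. Neighbours in other arrangements showed the same order. For head-to-head neighbours 1 to 10 kb apart the shares were 59.0% and 32.0%, for tail-to-tail neighbours within 1 kb 69.6% and 41.4%, and for same-strand neighbours within 1 kb 68.3% and 39.1%. These are descriptions of 1 group of cells, and no test of the differences was made.

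The share of pairs with both genes marked was 49.6% for the close head-to-head pairs, against 25.9% of 787 head-to-head pairs 1 to 10 kb apart, 40.1% of 559 tail-to-tail pairs and 37.7% of 528 same-strand pairs. The median gene length also differed, with 19172 bp in the close head-to-head pairs against 11974, 12602 and 9617 bp in the other arrangements, in the same order. The part of length in these shares was not tested.

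**Figure D2:**
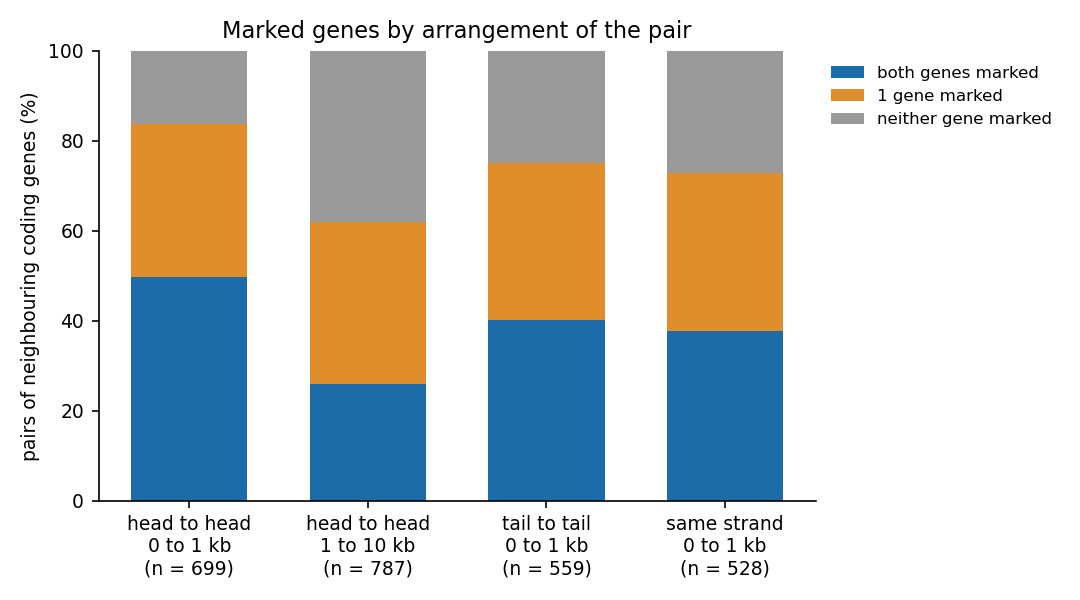
Percent of pairs of neighbouring coding genes with both genes, 1 gene or neither gene marked by H3K36me3, for close head-to-head pairs (699) and, to their right, head-to-head pairs 1 to 10 kb apart (787), tail-to-tail pairs (559) and same-strand pairs (528) within 1 kb. Both genes were marked in 49.6% of the close head-to-head pairs and in 25.9% to 40.1% of the others.

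The bases between the genes were little covered in head-to-head pairs, unlike those of tail-to-tail and same-strand pairs. The bases upstream of other marked genes were little covered too. The head-to-head gaps were covered to 0.0667% ± 0.0392, whereas tail-to-tail gaps within 1 kb were covered to 51.0% ± 0.952 and same-strand gaps to 13.0% ± 0.493. Gaps of head-to-head pairs 1 to 10 kb apart were covered to 0.552% ± 0.102. The bodies of the 347 pairs with both genes marked were covered to 53.7% ± 2.41 of their pooled bases. A peak touched the gap in 0.288% of those 347 pairs in replicate 1 and in 0.576% in replicate 2. Upstream of 5700 marked genes outside the pairs, with no coding gene within 1 kb of their starts, the first 200 bp were covered to 0.808% ± 0.0483 and held a peak base in 0.982% and 0.877% of cases.

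The 2 gaps with a peak were found in genes of unlike kinds. The gap of Rnf151/Rps2 was covered over 52 of 52 bp in both replicates. Rnf151, a ring finger gene known from testis, lay wholly in peaks, and Rps2, of the small ribosomal subunit, had 62.7% and 60.1% of its body in peaks. RefSeq places the start of Rnf151 6 bp and that of Rps2 5 bp from the GENCODE starts, so the gap differs little between the annotations. The gap of Dgcr2/Tssk2 was covered over 74 of 74 bp in replicate 2 and at none in replicate 1. RefSeq starts Dgcr2, a membrane protein of the DiGeorge region, 6834 bp further into the gene, so under that annotation the covered bases lie upstream of it and not between starts within 1 kb. Tssk2, a testis kinase, had 30.9% and 49.4% of its body in peaks.

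The peak-free stretch reached well past the gap on both sides. In the 347 pairs with both genes marked, the median distance from the last covered base of the minus-strand gene to the first covered base of the plus-strand gene was 4251 bp in replicate 1 and 4739 bp in replicate 2, a mean of 4495 ± 345 bp. The quartiles were 3211 and 7185.5 bp in replicate 1, and 3364 and 8470.5 bp in replicate 2. Only 1 pair in replicate 1 and 2 pairs in replicate 2 had a stretch under 1 kb, and 56 and 70 pairs had one over 10 kb. Spearman's rho of the stretch between the replicates was 0.864 over the 347 pairs.

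The length of the stretch varied widely from pair to pair. The following pairs were chosen after their values were seen. After Rnf151/Rps2, the shortest stretch in replicate 1 was that of Mrpl49/Fau, with 1107 bp there and 1286 bp in replicate 2. Mrpl49 is a mitochondrial ribosomal protein, and Fau a cytoplasmic one that is made fused to a ubiquitin-like protein. Rps28/Ndufa7 followed with 1413 and 1370 bp. At the other end, Zranb3/R3hdm1 had 59460 and 57536 bp and Agtpbp1/Naa35 had 50841 and 54270 bp. The longest stretch in replicate 2, 80914 bp, was that of Srgap2/Fam72a, which had 9352 bp in replicate 1. In Zranb3/R3hdm1 the long side was R3hdm1, where the first peak began 48470 bp in, and in Agtpbp1/Naa35 it was Agtpbp1, with 49383 bp, while Naa35 was covered from 1427 bp (replicate 1 for all 3 distances).

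**Figure D3:**
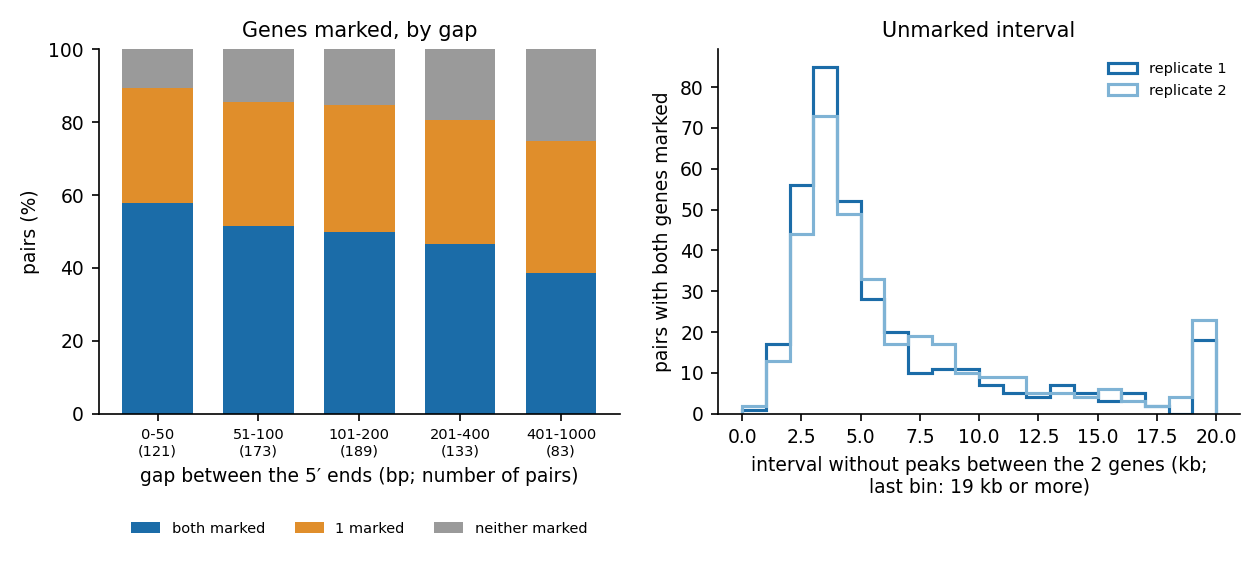
Left, percent of head-to-head pairs with both genes, 1 gene or neither gene marked, by the gap between the 5′ ends in bp, with the number of pairs in brackets. Right, number of the 347 pairs with both genes marked by the length in kb of the interval without peaks between the genes, in each replicate, with intervals of 19 kb or more in the last bin; the most common length was 3 to 4 kb.

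Along the gene, coverage rose from almost nothing at the shared start to a level plateau within about 3 kb. In genes of pairs with both genes marked, the first 250 bp were covered to 0.469% ± 0.130, the bases from 1000 to 1500 bp to 22.0% ± 2.20 and those from 3000 to 4000 bp to 59.8% ± 3.17. In marked genes outside the pairs the same bins were covered to 2.53% ± 0.0774, 17.3% ± 1.36 and 48.8% ± 2.84. In the marked genes of pairs with 1 marked gene they were covered to 0% in both replicates, 15.5% ± 1.95 and 49.8% ± 2.36. The pair genes thus started lower and, where both were marked, ended higher than other marked genes, by more than the replicate SD in the first and the last of these bins. The sets were chosen unlike each other at the start. Pairs with another coding gene over the gap were left out. Of the 7223 other marked genes, only 5700 had no coding gene within 1 kb upstream. The part of this choice in the lower first bin was not tested.

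The median distance from the start to the first covered base was 1867 ± 185 bp in genes of pairs with both genes marked, 2255 ± 115 bp in the marked genes of pairs with 1 marked gene and 2211 ± 162 bp in other marked genes. The first base itself was in a peak in 0.432% ± 0.204 of genes of pairs with both genes marked and in 2.51% ± 0.117 of other marked genes. The same unlike choice of genes bears on this comparison. In genes of at least 3 kb, the first of 3 equal parts was covered to 37.9% ± 2.70 where both genes were marked, against 32.2% ± 2.39 in other marked genes. The middle part was covered to 68.7% ± 1.63 against 58.6% ± 2.17, and the last part to 74.2% ± 1.53 against 68.3% ± 1.18. The median covered share of the whole body was 64.5% and 61.5% in genes of pairs with both marked, against 56.2% and 52.2% in other marked genes, in replicates 1 and 2.

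**Figure D4:**
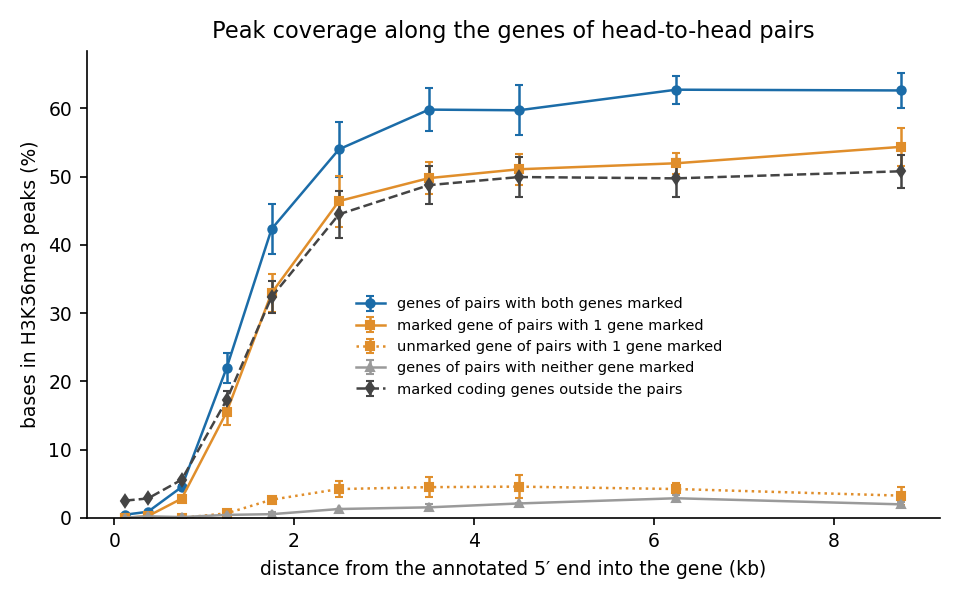
Percent of bases in H3K36me3 peaks by distance in kb from the annotated 5′ end into the gene, as the mean of 2 replicates with the SD as bars, for genes of pairs with both genes marked, the marked and the unmarked gene of pairs with 1 marked gene, genes of pairs with neither marked, and marked coding genes outside the pairs. At 3 to 4 kb, genes of pairs with both marked reach 59.8% and other marked genes 48.8%, while the unmarked partners stay at 4.50%.

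Pairs with closer starts were more often marked on both sides. With 0 to 50 bp between the starts, 70 of 121 pairs (57.9%) had both genes marked and 13 (10.7%) had neither. With 51 to 100 bp both were marked in 51.4% of 173 pairs, with 101 to 200 bp in 49.7% of 189, and with 201 to 400 bp in 46.6% of 133. With 401 to 1000 bp, 32 of 83 pairs (38.6%) had both genes marked and 21 (25.3%) had neither. The median interval without peaks in pairs with both marked was 3964 bp at 0 to 50 bp and 5868 bp at 401 to 1000 bp in replicate 1, and 4384 and 7062 bp in replicate 2.

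Most starts of head-to-head genes lay in CpG-rich sequence. In windows from 250 bases before to 50 bases after the start, 1206 of 1398 pair genes (86.3%) had a ratio of observed to expected CpG of at least 0.6, against 41.5% of other coding genes. Among genes with such starts, 70.5% of pair genes were marked, against 59.5% of others. Among genes with CpG-poor starts, 42.7% of 192 pair genes were marked, against 18.0% of 11999 others. The higher share in pair genes was therefore seen in both classes of start. The gaps themselves had a median G and C content of 62.9% in pairs with both genes marked, 64.0% with 1 marked and 59.8% with neither marked, for gaps of at least 20 bp.

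The same windows were searched for the 8 motifs listed above, on both strands, as exact letters. Windows of the partners overlap where the gap is short, so a match can count for both genes. TATAAA was found in 4.36% of windows of pair genes and in 12.7% of those of all coding genes. GGGCGG, the GC box bound by Sp1, was found in 68.1% and 43.0%, and CCAAT in 43.8% and 39.0%. CCGGAAGT, a motif of ETS factors, was found in 12.8% and 4.68%, AAGATGGC, a motif of YY1, in 8.08% and 2.91%, and GCATGCGC, a core of NRF1 sites, in 7.15% and 3.71%. TGACGTCA, the cAMP response element, was found in 4.51% and 2.43%, and ATTTGCAT, the octamer, in 1.43% and 1.57%. Marked genes outside the pairs are a closer comparison, since pair genes are more often marked than all coding genes. Of their windows, 7.27% held TATAAA, 60.6% GGGCGG, 40.1% CCAAT, 8.81% CCGGAAGT, 4.83% AAGATGGC, 5.84% GCATGCGC and 3.59% TGACGTCA. These values lie between those of the other sets, while ATTTGCAT was rarer than in both. The part of the mark in these contrasts was not tested. Within the pairs, AAGATGGC was found in 10.5% of windows where both genes were marked, 7.77% where 1 was and 1.32% where neither was. TATAAA ran the other way, with 2.74%, 3.57% and 11.0%, and CCAAT showed no such order, with 44.5%, 41.6% and 46.5%. GCATGCGC was found in 7.49%, 9.03% and 2.19%, GGGCGG in 71.3%, 68.7% and 57.0%, and CCGGAAGT in 13.8%, 13.4% and 8.33%. TGACGTCA was found in 5.76%, 3.36% and 3.07%, and ATTTGCAT in 0.576%, 1.05% and 4.82%. The windows of the pairs with neither marked include those of 27 histone genes, which held AAGATGGC in 0% and TATAAA in 63.0%. Histone genes gave 17 of the 25 windows with TATAAA in that class, 10 of the 11 with ATTTGCAT and 26 of the 106 with CCAAT. The values of these motifs where neither gene was marked therefore rest in part, and for ATTTGCAT mostly, on histone genes. A match says only that the letters are present.

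The largest family with no marked gene in the pairs was that of the replication-dependent histones. They gave 27 of the pair genes, in 14 pairs, and 0 of 27 were marked. In 26 of the 27 no base was covered in either replicate, the exception being Hist1h2bc with 0% in replicate 1 and 0.482% in replicate 2. Of all 67 histone genes of the list, 0 were marked. The 13 pairs of a histone gene with another histone gene and the pair Bola1/Hist2h2ab had a median gap of 258.5 bp. The windows at the starts of the 27 genes held CCAAT in 96.3%, TATAAA in 63.0% and the octamer in 37.0%, as in the printed gap of Hist1h2ae/Hist1h2bg.

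Histone genes are near-identical copies, so reads can fail to be placed in them. Of 32-base words taken from their bodies, a median of 31.5% occurred once in the genome, against 94.5% in genes of pairs with both genes marked and 92.5% in the other genes of pairs with neither marked. Of the 27 histone genes, 18 had under 50% of such words found once, so not all were hard to read. Coverage near the start was also low in marked genes. Where both genes of a pair were marked, the bases from 250 to 500 bp were covered to 0.889% ± 0.00122. A short gene thus offers few bases where peaks are common. The part of repeated sequence and of gene length in the missing peaks was not tested. By the measure of words found once, the gaps were readable, with a median of 100%, and 8 of 699 gaps below 50%.

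Most genes of RNA and protein synthesis were marked, both in the pairs and over all coding genes of the same lists. Of RNA processing factors, 34 of 36 pair genes were marked, against 156 of 167 coding genes of that list. Sf3a1, of the U2 particle of the spliceosome, averaged 96.1% ± 0.793, Prpf31, of the U4/U6 particle, 95.0% ± 0.0622, and Prpf4 88.4% ± 1.22. The lowest were Hnrnph2 with 16.0% ± 9.34 and Ddx25, a helicase known from male germ cells, with 0%. Of RNA polymerase and Mediator subunits, 13 of 13 were marked, against 54 of 57 coding genes of that list, led by Polr3a with 93.8% ± 0.262 and Med20, and the lowest was Polr3g with 46.6% ± 3.29. Of translation factors 7 of 7 were marked, against 60 of 68, from Eif5b with 56.2% ± 2.31 to Eif2b1 with 90.7% ± 1.65. Of aminoacyl-tRNA synthetases 5 of 5 were marked, against 33 of 37, among them Kars with 87.0% ± 0.158. Of cytoplasmic ribosomal proteins 8 of 8 were marked, against 80 of 83, with a median share of 85.4%.

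Mitochondrial genes made up another large group of pair genes. Of mitochondrial ribosomal proteins, 15 of 16 were marked, against 69 of 78 coding genes of that list, with Mrpl37 at 87.1% ± 5.28, Mrpl49 at 81.0% ± 2.24 and Mrps18b at 77.1% ± 1.99. The exception was Mrpl41, with 13.1% of its body in peaks in replicate 1 and 0% in replicate 2. Of respiratory chain genes, a list that also took in assembly factors, 17 of 21 were marked, against 83 of 98. Ndufa7, Sdha of complex II with 74.3% ± 0.487 and Atp5h of the ATP synthase with 76.0% ± 5.15 stood highest. Ndufaf2, an assembly factor of complex I, had 2.19% ± 0.197 beside 53.1% ± 6.84 in Ercc8, a repair factor. Of import and carrier genes 6 of 9 were marked, the 66.7% of all pair genes and below the 72.6% of all coding genes of that list, led by Timm23 of the inner membrane translocase with 86.2% ± 1.01. Slc25a47 and Slc25a29, carriers that are partners of each other, had 5.28% ± 1.15 and 12.0% ± 6.15. They counted as neither marked, since Slc25a29 had 7.64% in replicate 1.

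DNA replication and repair gave the largest named group, with 36 of 41 pair genes marked, against 130 of 143 coding genes of that list. Topbp1, Brca1, Mcm4 and Pole, the catalytic subunit of DNA polymerase epsilon with 90.4% ± 0.142, stood above 90%. At the low end, Wrn, a RecQ helicase, and its partner Purg had no covered base in either replicate. Fancb, of the Fanconi anaemia core complex, had 3.24% in replicate 1 and 0% in replicate 2. Of proteasome genes 7 of 8 were marked, against 42 of 50 coding genes of that list, among them Psmc5 with 76.5% ± 3.36, and Psmd10 with 6.73% ± 0.153 was the exception.

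Other lists held both strongly covered and uncovered genes. Of chaperones 6 of 12 were marked, against 46 of 77 coding genes of that list. Cct3 and Cct5, subunits of the cytosolic chaperonin, had 94.6% ± 0.594 and 83.2% ± 2.38, whereas their relative Cct6b, known from testis, had 0%. The heat-inducible Hspa1a and its partner Hspa1l had no covered base. Of cilium and centriole genes 13 of 21 (61.9%) were marked, near the 66.7% of all pair genes and against 49 of 113 coding genes of that list. Centrosomal Cep57 had 84.1% ± 0.787 and Cep76 77.1% ± 3.28, while Cfap52, Cfap57, Cfap99 and Dnaic1 of motile cilia had 0%. Genes named Cep were not all marked, with Cep128 at 1.14% ± 0.162, Cep290 at 5.92% ± 1.59 and Cep19 at 3.60% ± 5.10. Of membrane traffic genes 9 of 13 (69.2%) were marked, near the 65.6% of all coding genes of that list and the 66.7% of all pair genes, from Trappc1 and Rab13 with 0% to Cope of the COPI coat with 79.4% ± 0.560. Of zinc finger genes named Zfp, 12 of 19 (63.2%) were marked, near the 59.9% of all coding genes of that list, led by Zfp142 with 80.6% ± 1.29. Of unnamed gene models 20 of 60 were marked, against 305 of 2059 coding genes of that list, the highest being 6030458C11Rik with 85.4% ± 1.53, the partner of Drosha.

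The only collagens in the pairs were the Col4a4 and Col4a3 genes described above, since Col4a3bp, which the symbol pattern also took in, is a ceramide transfer protein; it had 7.10% ± 3.61 beside Polk. The single vomeronasal receptor, Vmn1r4, had 0% beside Nt5c3 with 11.6% ± 0.269. In these families the unmarked gene lay within 100 bp of its partner's start.

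**Figure D5:**
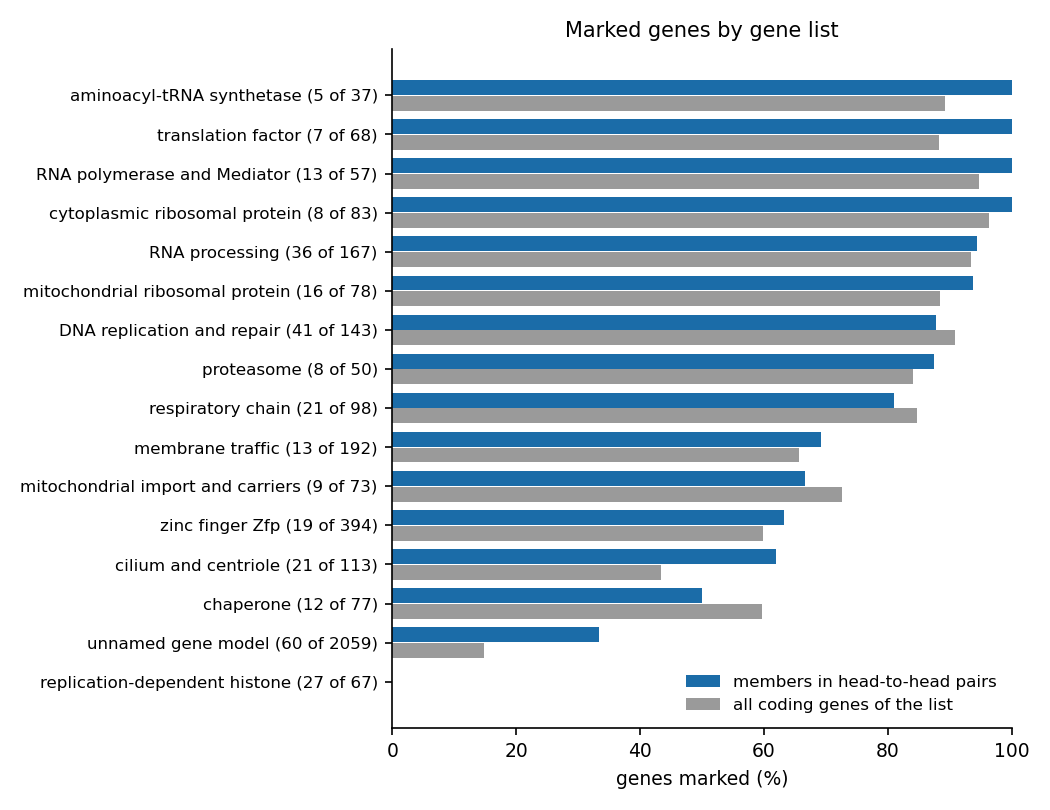
Percent of genes marked by H3K36me3 among members of each gene list that lie in head-to-head pairs (upper bar) and among all coding genes of the list (lower bar), with the number in pairs and in all beside each name; lists with at least 5 pair genes are shown. Pair genes were marked in 100% of 4 lists and in 0% of the 27 histone genes.

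Some well-studied pairs outside the textbook list were looked up after their values were seen. Trp53, the tumour suppressor p53, had 87.2% and 80.0% of its body in peaks, and its partner Wrap53 had 79.4% and 78.7%, with starts 103 bp apart. Peg3, an imprinted zinc finger gene, had 43.1% and 51.2%, while Usp29, which starts 146 bp away and is imprinted too, had no covered base. Sgce and Peg10, another imprinted pair, had at most 0.458% and 4.69% and counted as neither marked. In 45 of the 114 pairs with neither gene marked, no base of either gene was covered in either replicate.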

How the data were processed

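The deposited files are peak lists on mm10, called for each replicate. For each peak they give a fold enrichment, a ratio over background from the authors' caller, with its p-value and q-value written as −log10. The pseudoreplicated lists were used here, in which the authors, per the labels and the deposited lists of files, kept peaks supported by divisions of a library's reads. Aligner, caller and read depth: not given in the sources used here. The fold was not used for any result.

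Gene records came from GENCODE M21, with 27 repeated records of a symbol left out and chromosomes 1 to 19, X and Y used. A further 50 combinations of genes were left out because another coding gene lay over the gap. Of the pair genes, 286 overlapped another coding gene, whose mark cannot be told from theirs. Covered shares were computed from merged peaks with Python 3.11.15, numpy 2.4.6 and pandas 2.3.3, and figures drawn with matplotlib 3.10.9. The code was tested on simulated peaks. Uniqueness used all 32-base words touching a gap and 200 words spaced along each gene.

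Genes named are those of the listed known pairs, the 5 highest pairs with both genes marked, the 8 widest differences with 1 marked, the covered gaps, the 3 widest replicate differences, and up to 3 high and 2 low genes per list, of which some are not reported here. Others are said to be chosen after their values were seen. The pairs and lists were chosen with earlier results of these data known.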

Additional observations from a re-analysis of the deposited data

How the results depend on the processing

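With the threshold at 50% of the body, 143 pairs had both genes marked and 291 had neither, against 347 and 114 at 10%; at 5% and 25% these counts stayed within 1.5 times. In the 439 pairs whose genes overlap no other coding gene, both were marked in 196, or 44.6%. Leaving out 1 replicate gave 351 to 374 pairs with both genes marked, 223 to 241 with 1, 102 to 107 with neither, gaps covered to 0.0389% to 0.0944%, a median body share of 36.9% to 40.0% and a median unmarked interval of 4311 to 4739 bp. The median covered share of pair genes, 38.4% ± 2.19, became 44.6% with unthresholded peaks and 35.3% with −log10 q of at least 5. It became 48.9% with the pooled set of replicated peaks, which the deposited list of files calls derived from both replicates. It became 40.8% with gaps up to 500 bp, 34.1% without overlapping genes and 46.1% when counted from 1 kb after the start. The median interval became 3815 bp with unthresholded peaks and 4843, 4016 and 3695 bp at thresholds of 5%, 25% and 50%. The covered share of the gaps, 0.0667% ± 0.0392, ranged from 0.0350% to 0.100% in the alternatives run, each within 1 SD. These include one added after the data were seen that kept pairs with another coding gene over the gap (365 pairs with both genes marked). Leaving out 1 of 2 replicates cannot move a mean by more than 1 SD. The SD is also a loose measure here, since it rests on 1 gap with a peak in replicate 1 and 2 in replicate 2. Depth is unknown, so weak marks near the threshold cannot be resolved. No paired analysis was possible because there is only 1 group.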
